A study of Mus musculus with 5 samples.

Results

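The 8 genes Slc7a5, Slc3a2, Slc7a1, Slc1a4, Slc1a5, Slc38a1, Slc38a2 and Slc7a6 code for amino acid transporters of the plasma membrane. They were chosen by name from the 23771 genes of the table that describes cancer cells in the lung. The cells were 4T1 cells, 1 mouse mammary carcinoma line, that expressed the reporter CD90.1 and had been injected intravenously into female BALB/c mice, 25000 cells per mouse. From the age of 6 weeks and before the cancer cells, mice had received 200 µl intravenous injections of either tumor-secreted factors (TSF), medium in which cut 4T1 tumors had been kept, or control medium (CM), kept in parallel without tumor. There were 3 injections per week for 3 weeks. Lungs were dissociated with enzymes at day 16 after the cancer cells, at 11 weeks of age as labelled, and the cells of 3 mice were pooled into 1 library per group. The TSF library held 139 cancer cells and the CM library held 29. Values per gene exist for these 2 libraries, and those of day 11 were not analysed here.

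Cells take up amino acids through carriers with overlapping substrates. Large neutral amino acids such as leucine enter by exchange through heterodimers, in which a glycoprotein heavy chain, the product of Slc3a2 (CD98hc, also 4F2hc), brings a light chain such as LAT1, the product of Slc7a5, to the membrane. Glutamine and other small neutral amino acids enter through sodium-dependent carriers, and the glutamine they bring in can be exchanged outward for leucine. Leucine and arginine inside the cell are read by the kinase complex mTORC1, while a shortage of amino acids is read by the kinase GCN2, which raises translation of the transcription factor ATF4. Several of the 8 genes are textbook ATF4 targets. Many tumors carry high levels of Slc7a5, Slc3a2 and Slc1a5.

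The levels were mean CP10k, the UMIs (unique molecular identifiers, 1 per captured RNA molecule) of a gene per 10000 UMIs of a cell, averaged over the cancer cells of a library. Below, a value with TSF or with CM is that of the cancer cells of the TSF or the CM library at day 16. The 5′ protocol captures 1 end of each RNA, so levels of different genes were compared without scaling by length. A ratio is given on the log2 scale with a pseudocount of 1, which understates changes of genes with low levels. Each group was 1 library, so differences had no replicate to be judged by and no test was made. Intervals are exact (Clopper-Pearson) for a share and Newcombe's for a difference of shares, at the 95% level, and cover counting error only, not differences between mice. Differences of shares are TSF minus CM.

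Start regions are shown for genes on which the results below turn, because 3 short elements tied to amino acid stress or to growth were looked for in them. RefSeq windows of 250 bases before to 50 after a start were at hand for 5 of the 8 genes, 7 windows in all, on GRCm38.p6. Slc3a2 had the largest difference between the libraries, Slc38a2 the highest level in the TSF library, and Slc1a4 the single window with a match. Each line gives 100 bases before and 10 bases after the start, 5′ to 3′, and capitals mark the match.
Slc3a2 (chr19:8713888-8713997, minus strand): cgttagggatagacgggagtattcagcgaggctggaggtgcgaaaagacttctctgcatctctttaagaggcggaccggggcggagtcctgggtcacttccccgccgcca
Slc38a2 (chr15:96699719-96699828, minus strand): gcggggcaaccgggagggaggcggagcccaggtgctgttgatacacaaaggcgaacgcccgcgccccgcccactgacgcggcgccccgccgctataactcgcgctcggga
Slc1a4 (chr11:20332704-20332813, minus strand): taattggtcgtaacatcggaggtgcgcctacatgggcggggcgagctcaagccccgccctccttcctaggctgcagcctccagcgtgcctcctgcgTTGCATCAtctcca

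The match in Slc1a4 was a C/EBP-ATF response element, searched as TGATGNAA on both strands, and it reads 5′ to 3′ on the strand opposite to the printed line, from base -4 to base 4 around the start. This motif was in 1 of the 7 windows and in 3.97% of all 32851 windows. The cAMP response element TGACGTCA was in 0 of the 7 and in 1.79% of all, and the E-box CACGTG was in 0 of the 7 and in 7.15% of all. The motifs do not overlap each other in these windows. A match is a description of letters. GC content of the 7 windows ran from 51.7% for 1 of the windows of Slc7a1 to 76.7% for 1 of the windows of Slc7a6, against a median of 52.7% over all windows. Slc7a5, Slc1a5 and Slc38a1 had no window.

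All 8 transporters passed the filter, a UMI in 10% or more of the cancer cells with TSF or with CM, as did 10201 genes in all. All 8 had a lower mean CP10k in the TSF library, where 59.7% of the 10201 genes were lower. The median log2 ratio of TSF over CM was -0.17 for the 8 transporters and -0.03 for all genes. Past 1.5-fold, 2 transporters were lower in the TSF library, Slc3a2 and Slc7a5, where 1.95% of all genes were lower by that much, and 0 were higher, where 0.755% of all genes were. The share of cells with a UMI was lower in the TSF library for 6 of the 8, where 50.8% of all genes were lower, and higher for Slc7a5 and Slc38a2. For all 8 genes the intervals of the 2 shares overlapped, and the interval of their difference held 0. How many of all genes did so was not counted, and the CM intervals are wide. The overlap is therefore no trait particular to the 8.

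**Figure D1:**
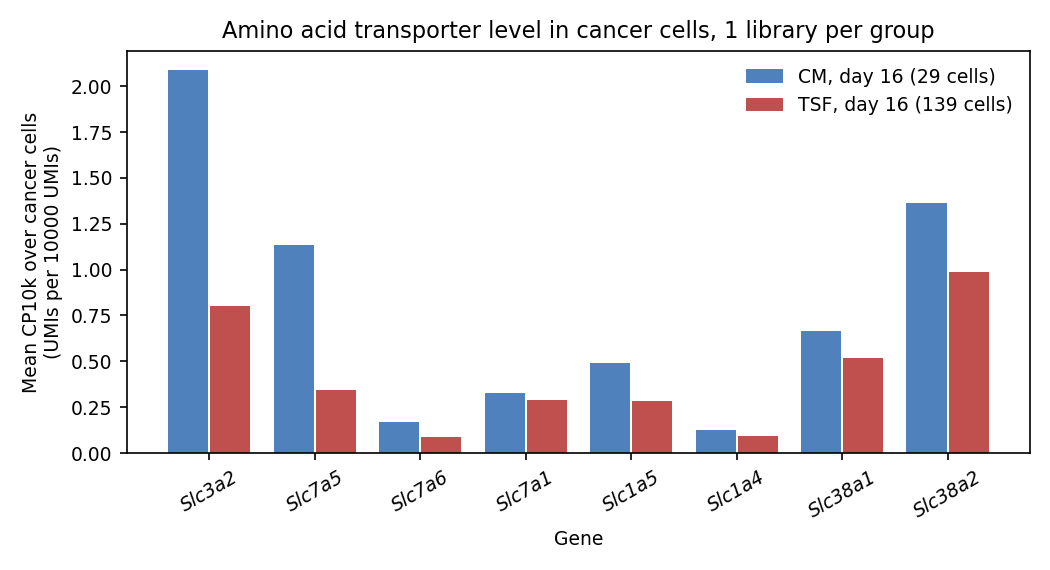
Bars give the mean CP10k of each transporter over the 29 cancer cells of the CM library (blue) and the 139 of the TSF library (red) at day 16, with no error bar because each group was 1 library. The blue bar is the taller one for all 8 genes, and the widest gaps are those of Slc3a2 (2.09 and 0.802) and Slc7a5 (1.13 and 0.346).

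Slc3a2, the heavy chain that all the heterodimers below need (chr19:8706882-8723369, GRCm38, minus strand), had a mean of 0.802 CP10k with TSF and 2.09 CP10k with CM. The CM library was higher, with a log2 ratio of -0.78, the largest difference among the transporters with the pseudocount of 1. With a pseudocount of 0.1 the difference of Slc7a5 was larger (-1.47 against -1.28). A UMI of Slc3a2 was seen in 99 of the 139 TSF cells (71.2%, interval 62.9 to 78.6%) and in 21 of the 29 CM cells (72.4%, interval 52.8 to 87.3%). The shares thus differed by -1.19 percentage points (interval -16.4 to 18.2), while the level per cell with a UMI was 1.13 CP10k with TSF and 2.89 with CM. A single shallow CM cell, described below, could hold up to 5 UMIs of Slc3a2, and the mean of the other 28 CM cells would then be 0.329 CP10k, under that with TSF.

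Slc7a5, the light chain LAT1 that exchanges large neutral amino acids (chr8:121881150-121907694, minus strand), had a mean of 0.346 CP10k with TSF and 1.13 CP10k with CM, a log2 ratio of -0.67. A UMI was seen in 59 TSF cells (42.4%, interval 34.1 to 51.1%) and in 12 CM cells (41.4%, interval 23.5 to 61.1%), a difference of 1.07 points (interval -18.5 to 19.0). Per cell with a UMI the level was 0.814 CP10k with TSF and 2.74 with CM. Had each of the 12 CM cells held a single UMI, the CM mean could have been at most 0.747 CP10k, so at least 1 CM cell held more than 1 UMI of Slc7a5. Slc7a5 lies within the span of Gm20388, an annotated gene of the opposite strand, and whether the counting used strand is not given in the sources used here.

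Slc7a6, the light chain y+LAT2 that exchanges cationic for neutral amino acids (chr8:106168857-106198706, plus strand), had the lowest mean of the 8 in the TSF library. Its mean was 0.0856 CP10k there and 0.170 CP10k in the CM library, a log2 ratio of -0.11. It was seen in 28 TSF cells (20.1%, interval 13.8 to 27.8%) and in 10 CM cells (34.5%, interval 17.9 to 54.3%). The difference of -14.3 points (interval -33.4 to 1.99) was the largest among the shares and came near to leaving out 0.

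The light chains known to pair with the product of Slc3a2 are those of Slc7a5, Slc7a6, Slc7a7, Slc7a8, Slc7a10 and Slc7a11. Their summed level was 0.734 of that of Slc3a2 with TSF and 0.662 with CM. Of the 6 light chains, Slc7a5 and Slc7a6 had a lower mean with TSF, and the other 4 a higher one from low levels. Slc7a8 and Slc7a10 were each seen in 2 TSF and 0 CM cells, and Slc7a11 in 16 and 1, too few to give a direction. The share of cells with Slc7a7 was lower with TSF (12.9% and 17.2%). Within the light chains, Slc7a5 made up 58.7% of the summed CP10k with TSF and 82.0% with CM. Both CM values, 0.662 and 82.0%, depend on the shallow CM cell described below. Without that cell, the CM mean could be as low as 0.441 CP10k for Slc7a5 and 0.329 for Slc3a2. Whether the libraries differed in the make-up of the light chains is therefore not settled.

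Slc7a1, the cationic amino acid carrier CAT1 that brings in arginine and lysine (chr5:148327410-148399904, minus strand), differed least between the libraries. Its mean was 0.292 CP10k with TSF and 0.325 CP10k with CM, a log2 ratio of -0.04. It was seen in 56 TSF cells (40.3%, interval 32.1 to 48.9%) and in 12 CM cells (41.4%, interval 23.5 to 61.1%). The difference was -1.09 points, and its interval, -20.6 to 16.8, leaves room for shifts of that size either way.

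Slc1a5, the glutamine carrier ASCT2 (chr7:16781340-16798274, plus strand), had a mean of 0.284 CP10k with TSF and 0.493 CP10k with CM, a log2 ratio of -0.22. A UMI was seen in 66 TSF cells (47.5%, interval 39.0 to 56.1%) and in 16 CM cells (55.2%, interval 35.7 to 73.6%). Its relative Slc1a4, the carrier ASCT1 for alanine, serine and cysteine (chr11:20302180-20332713, minus strand), was at 0.0925 CP10k with TSF and 0.126 CP10k with CM, a log2 ratio of -0.04. Slc1a4 was seen in 29 TSF cells (20.9%, interval 14.4 to 28.6%) and in 7 CM cells (24.1%, interval 10.3 to 43.5%). Of this pair, Slc1a5 stood 3.07 times above Slc1a4 with TSF and 3.91 times above it with CM.

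Slc38a2, the carrier SNAT2 that concentrates small neutral amino acids and is known to rise when these are scarce (chr15:96687392-96699730, minus strand), had the highest mean of the 8 in the TSF library. Its mean was 0.987 CP10k there and 1.36 CP10k in the CM library, a log2 ratio of -0.25. Unlike the mean, the share of cells was higher in the TSF library, with 115 cells (82.7%, interval 75.4 to 88.6%) against 22 CM cells (75.9%, interval 56.5 to 89.7%), a difference of 6.87 points (interval -7.02 to 25.6).

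Slc38a1, its neighbour on the chromosome and the glutamine carrier SNAT1 (chr15:96571418-96642913, minus strand), had a mean of 0.518 CP10k with TSF and 0.663 CP10k with CM, a log2 ratio of -0.13. A UMI was seen in 86 TSF cells (61.9%, interval 53.3 to 70.0%) and, as for Slc38a2, in 22 CM cells (75.9%, interval 56.5 to 89.7%). The level per cell with a UMI was 0.838 CP10k with TSF and 0.874 with CM, so here the lower mean went with the lower share, -14.0 points (interval -28.5 to 5.54). Slc38a2 stood 1.90 times above Slc38a1 with TSF and 2.05 times above it with CM.

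**Figure D2:**
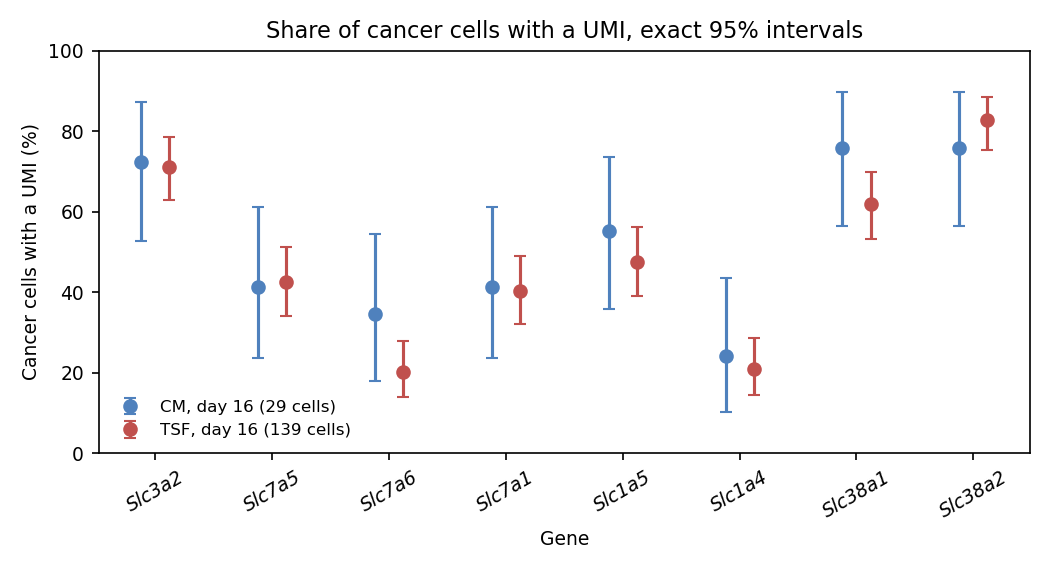
Points give the percent of cancer cells with at least 1 UMI of each transporter in the CM (blue) and TSF (red) libraries of day 16, and bars the exact 95% intervals. The 2 intervals of each gene overlap for all 8 genes, and those of the CM library are the wider ones.

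In the TSF library the shares ran, from the highest, Slc38a2, Slc3a2, Slc38a1, Slc1a5, Slc7a5, Slc7a1, Slc1a4 and Slc7a6. Of neighbours in that order, Slc7a1 and Slc1a4 alone had intervals that did not overlap (40.3% and 20.9%), so 6 genes were seen in 40.3 to 82.7% of cells and 2 genes in 20.1 and 20.9%. In the CM library all neighbours overlapped. By mean level, Slc38a2 came first and Slc3a2 second in the TSF library, and the reverse was true in the CM library. All shares come from the same cells of each library, so the genes are not independent of each other. Shares in a cell type that should lack these genes were not analysed here.

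The depth of single cells bears on these means. The median cancer cell held 26615 UMIs with TSF and 27679 with CM, but 8 of 29 CM cells (27.6%) and 14 of 139 TSF cells (10.1%) held fewer than 10000. The shallowest CM cell held 973 UMIs, and the next 5962. In a mean of CP10k each cell counts alike, so 1 UMI in that cell added 0.354 CP10k to the CM mean, where 1 UMI in the median CM cell added 0.0125. The gap between the libraries equalled 3.63 UMIs of the shallowest CM cell for Slc3a2, 2.23 for Slc7a5, 1.06 for Slc38a2 and under 1 for the other genes.

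**Figure D3:**
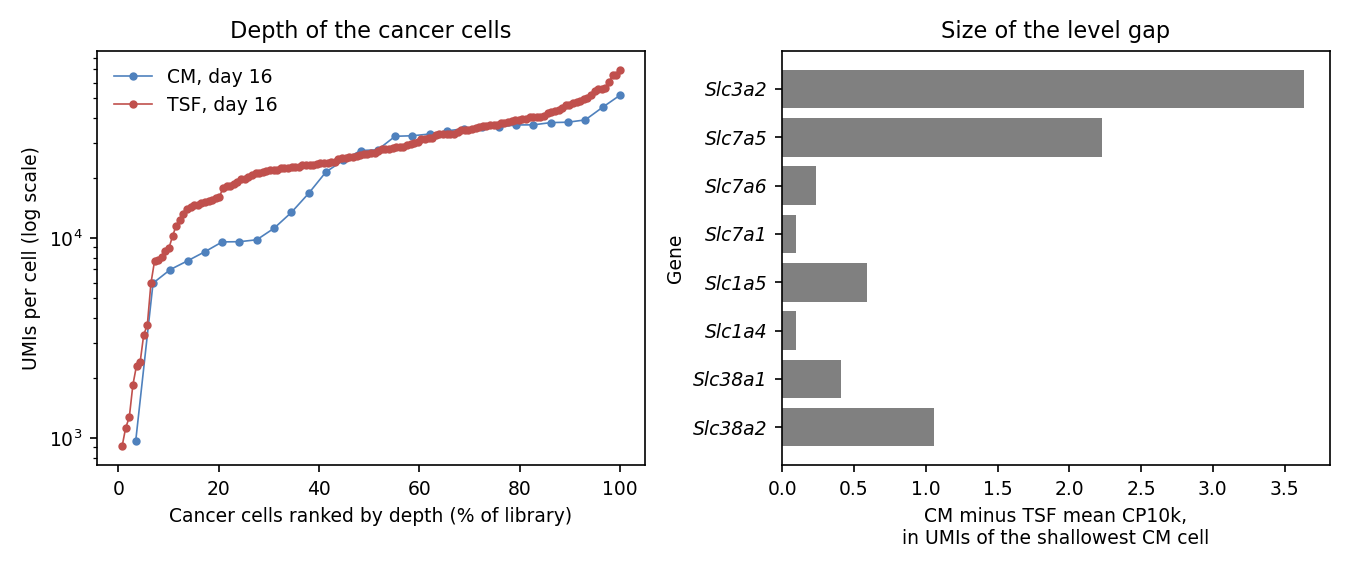
Left, UMIs per cancer cell on a log scale, ranked within each library and placed by percent of its cells, for CM (blue, 29 cells) and TSF (red, 139 cells); the CM curve starts at 973 and the TSF curve at 909. Right, bars give the CM minus TSF gap in mean CP10k of each transporter in units of 1 UMI of the shallowest CM cell, from 0.0933 for Slc7a1 to 3.63 for Slc3a2.

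The most whole UMIs that the shallowest CM cell could hold follows from the CM mean. It was 0 for Slc7a1, Slc1a4, Slc1a5 and Slc7a6, 1 for Slc38a1, 2 for Slc7a5, 3 for Slc38a2 and 5 for Slc3a2. Without that cell, and with these most extreme values, the mean over the other 28 CM cells would have been 0.441 CP10k for Slc7a5, above the 0.346 of the TSF library, and 0.329 CP10k for Slc3a2, below the 0.802 of the TSF library. Slc38a1 and Slc38a2 would have been below the TSF library too, at 0.319 and 0.309 CP10k. The CM library thus stayed higher whatever that cell held for 5 of the 8 transporters, Slc7a5, Slc7a1, Slc1a4, Slc1a5 and Slc7a6, and none would have been past 1.5-fold lower with TSF. At its most extreme, Slc38a2 would have been past 1.5-fold higher with TSF (log2 ratio 0.60). How many UMIs the shallowest CM cell held for each gene is known only by these bounds. No other cell of either library was left out in this way. A UMI in the next shallowest CM cell added 0.0578 CP10k to the CM mean, more than the whole gap of Slc7a1 (0.0331) or Slc1a4 (0.0338). In the shallowest TSF cell a UMI added 0.0791 CP10k to the TSF mean. The direction of these small gaps is therefore not settled.

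The other amino acid transporters of the plasma membrane that passed the filter were mostly higher with TSF. Of 37 further carriers in the table, 18 had a UMI in any cancer cell and 7 passed the filter, of which 6 were higher and 1 lower in the TSF library, none past 1.5-fold, with a median log2 ratio of 0.05. Slc38a10 is a member of the SNAT family, and where its product sits in the cell was not examined here. It was at 0.570 CP10k with TSF and 0.389 with CM. It was seen in 71.2% and 51.7% of cells, a difference of 19.5 points (interval 0.803 to 38.1). The next were Slc43a2, the facilitated carrier LAT4 (0.422 and 0.312 CP10k), and Slc6a6, the taurine carrier (0.407 and 0.310 CP10k).

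At the low end of that list stood Slc6a9, the glycine carrier GlyT1 (0.0379 and 0.101 CP10k). Slc38a6 (0.0832 and 0.0817 CP10k) and the light chain Slc7a7 (0.0961 and 0.0696 CP10k) were nearer to equal. Carriers of acidic amino acids were at or near 0. Slc1a1 and Slc1a2, the glutamate and aspartate carriers EAAT3 and EAAT2, had a UMI in 0 of 139 TSF and 0 of 29 CM cells, which at 3 counts of the total allows shares of up to 2.16% and 10.3%. Slc1a3 (EAAT1) was seen in 1 TSF cell. Slc7a11, the cystine and glutamate exchanger xCT, was seen in 16 TSF cells (11.5%) and 1 CM cell (3.45%).

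The 8 transporters together summed to 3.41 CP10k with TSF and 6.36 with CM, and to 2.26 and 3.14 without Slc3a2 and Slc7a5. They made up 66.1% of the summed CP10k of all plasma membrane amino acid transporters with TSF and 82.7% with CM. The remaining carriers summed to 1.75 CP10k with TSF and 1.33 with CM. For the 8, the CM sums and percent depend on the shallowest CM cell through Slc3a2, Slc7a5, Slc38a1 and Slc38a2. Without that cell, the CM mean could be as low as 0.329 CP10k for Slc3a2 and 0.309 for Slc38a2. Which library had the higher sum of the 8 is therefore not settled.

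Among carriers inside the cell none was past 1.5-fold with the pseudocount of 1. Without it, those past 1.5-fold and higher with TSF were Slc25a29 (3.89 times) and Slc15a4 (1.63 times). Those higher with CM were Sfxn2 (2.54 times), Sfxn3 (2.17), Slc36a1 (2.05) and Slc25a22 (1.86). Slc25a29 was seen in 24 TSF and 2 CM cells. What the shallowest CM cell gave to these ratios was not examined. Of 8 lysosomal amino acid transporters in the table, 5 passed the filter, 3 with a higher and 2 with a lower mean in the TSF library. Their median was 0.01, while the share of cells was lower with TSF for 4 of the 5. Slc38a9 was seen in 10.8% of TSF and 24.1% of CM cells, a difference of -13.3 points (interval -31.8 to 0.112). Slc38a9, the lysosomal arginine sensor, was at 0.0734 and 0.0612 CP10k in the TSF and CM libraries, Slc15a4, the histidine and peptide carrier, at 0.113 and 0.0691, and Pqlc2, the exporter of cationic amino acids, at 0.0344 and 0.0280. Slc36a1, the proton-coupled carrier PAT1, was seen in 10.1% of TSF and 27.6% of CM cells, a difference of -17.5 points (interval -36.1 to -3.25), while its levels were 0.0456 and 0.0937 CP10k. Slc38a7, a lysosomal glutamine and asparagine exporter, was at 0.0383 and 0.0504 CP10k.

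Of 12 mitochondrial amino acid carriers, 9 passed the filter, 4 higher and 5 lower, with a median of -0.04. Sfxn1, the serine carrier, was highest, at 1.26 CP10k with TSF and 0.839 with CM, and its relative Sfxn3 was lowest, at 0.336 and 0.729 CP10k. The aspartate and glutamate carriers Slc25a12 (0.217 and 0.207 CP10k) and Slc25a13 (0.248 and 0.242 CP10k) had log2 ratios of 0.012 and 0.0070. The glutamate carrier Slc25a22 was at 0.122 and 0.227 CP10k, the glycine carrier Slc25a38 at 0.119 and 0.171, and the carrier of basic amino acids Slc25a29 at 0.0901 and 0.0232.

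Genes of the ATF4 response to amino acid shortage mostly had a lower mean in the TSF library, as the 8 transporters did. The share of cells with a UMI was lower for 9 of the 18 that passed the filter, where 50.8% of all genes were lower. Of 20 genes in the table, 18 passed the filter, 14 lower (77.8%, where 59.7% of all genes were lower) and 4 higher, with a median log2 ratio of -0.12 beside the -0.03 of all genes. With the pseudocount of 1, only Atf4 was past 1.5-fold, at 0.980 CP10k with TSF and 2.30 with CM, a log2 ratio of -0.73. Atf4 had a UMI in 77.0% and 89.7% of cells.

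Ddit3, the stress factor CHOP, was at 0.233 and 0.837 CP10k in the TSF and CM libraries. Chac1, a glutathione-degrading ATF4 target, was at 0.121 and 0.586 CP10k. Unlike its mean, its share of cells was higher with TSF, at 20 TSF cells (14.4%) and 3 CM cells (10.3%). Higher in the TSF library were Nupr1, a stress-induced chromatin factor (4.35 and 2.58 CP10k), the mTORC1 inhibitor Ddit4 (2.40 and 2.00) and Psph, the last enzyme of serine synthesis (0.466 and 0.315). Nupr1 was seen in 87.8% of TSF and 58.6% of CM cells, a difference of 29.1 points (interval 12.01 to 47.6). The means of Atf4 and Ddit3 depended on the shallowest CM cell as Slc3a2 did. Without that cell they could be as low as 0.542 and 0.133 CP10k in the CM library. The mean of Chac1 stayed higher in the CM library without it, at 0.239 CP10k or more, but rested on 3 CM cells at most.

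Genes that sense amino acids for mTORC1 were split. Of 31 in the table, 29 passed the filter, 13 higher and 16 lower in the TSF library, with a median of -0.01. Sesn3, a sestrin, was the single gene past 1.5-fold, at 1.24 CP10k with TSF and 2.42 with CM, where without the shallowest cell it could be as low as 0.306. Depdc5, a subunit of GATOR1 (0.0620 and 0.280 CP10k), and Fnip1, a folliculin partner (0.282 and 0.522), came next. Highest were the Ragulator subunits Lamtor4 (1.07 and 0.558 CP10k) and Lamtor2 (1.95 and 1.49), followed by the other folliculin partner Fnip2 (0.162 and 0.0723).

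**Figure D4:**
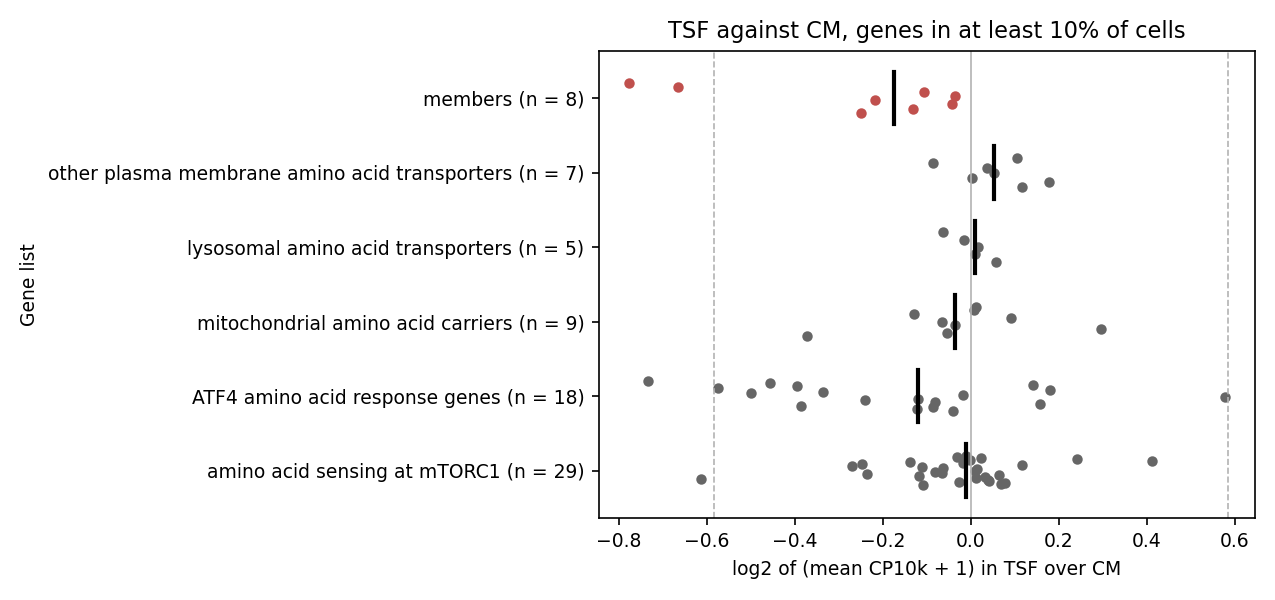
Each point is the log2 ratio of mean CP10k plus 1 in the TSF over the CM library for 1 gene seen in at least 10% of cells of either library, by gene list; black bars are medians and dashed lines mark 1.5-fold. All 8 transporters lie below 0 (median -0.17), as do 14 of 18 ATF4 response genes, while 6 of 7 other plasma membrane carriers lie above 0.

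Other features of the cells moved with these differences, and their part in them was not tested. Of 9 immediate-early and dissociation stress genes, 8 passed the filter and all 8 were lower in the TSF library, 6 of them past 1.5-fold, and the list summed to 38.6 CP10k with TSF and 108 with CM. Ribosomal protein genes took 23.9% of CP10k with TSF and 18.6% with CM. With these genes left out of the total, all 8 transporters stayed lower in the TSF library and 2 stayed past 1.5-fold.

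The authors' label of carcinoma cells was checked against markers. Of 7 carcinoma markers, only Krt8 and Krt18 were near universal in both libraries. Epcam, Cdh1 and the reporter were seen in few CM cells. Krt8 was seen in 137 of 139 TSF and 29 of 29 CM cells and Krt18 in 138 and 28. Epcam was seen in 95 (68.3%) and 8 (27.6%), at 1.28 and 0.195 CP10k. The shares with TSF and CM were 61.2% and 62.1% for Krt7, and 38.1% and 31.0% for Krt19. They were 53.2% and 31.0% for Cldn7, and 25.2% and 6.90% for Cdh1. The reporter CD90.1 was seen in 48 TSF cells (34.5%) and 2 CM cells (6.90%). Thy1, the mouse gene for CD90, of which CD90.1 is a variant, was seen in 106 TSF cells (76.3%) and 10 CM cells (34.5%), and was named after its values were seen. Of 10 leukocyte markers, Cd74 alone passed the filter, at 4.23 CP10k with TSF and 21.5 with CM, and the list summed to 5.26 and 21.5, while Lyz2, Nkg7 and Csf1r were at 0 in both and Ptprc was seen in 4 TSF and 0 CM cells. Of the 5 lung epithelial markers none passed the filter, of the 4 endothelial markers Cdh5 alone did, and of the 5 fibroblast markers Dcn and Pdgfra did. The summed levels of these 3 lists were 0.0591, 0.186 and 1.07 CP10k with TSF and 0.476, 0.0588 and 0.498 with CM. The part of Cd74, Epcam, Cdh1, Cldn7 and the reporter in the transporter values was not tested. The libraries shared 0 barcodes among cancer cells and 31 among all their cells.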

How the data were processed

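Single-cell RNA of dissociated lungs was measured with the 10x Genomics 5′ kit in 5 libraries of 4 groups, of which the CM and TSF libraries of day 16 were compared. The authors mapped reads in Cell Ranger to mm10 (GRCm38.p6), to which the CD90.1 sequence had been added, subtracted ambient RNA from the UMI counts with an adapted SoupX that takes about the same number of counts from every cell, and used Seurat 4.1.0. The deposited cell table gives UMI counts per cell and the authors' cell types. Its cells had at least 800 UMIs and at most 9.99% mitochondrial UMIs. Cancer cells were taken from the authors' annotation, which rests on clusters with CD90.1, and the authors removed no doublets among them. The table also held 2 libraries that were not used.

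The deposited gene table gives the mean CP10k of each library, a signal per 10000 UMIs, with the counts and percent of cells with a UMI. It also holds the authors' log2 fold changes, p-values, q-values and ranking scores, and another file their gene set scores. None of these was used. The 1373 genes seen in 1 CM cell all gave whole UMIs of a CM cell (relative tolerance 1e-06).

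Ratios were log2 of mean CP10k plus 1, over genes in at least 10% of cells of either library, and a gene was counted as past the fold at 1.5. The scripts were tested on simulated data. Upper limits at a share of 0 are 3 counts of the total. The median depths of the cancer cells, 26615 UMIs (TSF) and 27679 (CM), limit what a missing UMI means, and shares could not be thinned to equal depth without the matrix. Gene coordinates came from GENCODE M21. Genes named from each list were the 3 highest and 3 lowest ratios, the aspartate and glutamate carriers and Slc7a11. Sfxn2 was added for its ratio without the pseudocount. The transporters, the lists and this rule were chosen with earlier results of these data known. Markers were named as members of their lists. Alternatives were the pseudocount, the filter, the fold, the total without ribosomal protein genes, centring on the median gene, the level per cell with a UMI, Wilson intervals and the CM library without its shallowest cell. Values were computed in Python 3.11.15 with pandas 2.3.3, numpy 2.4.6 and scipy 1.17.1, and drawn with matplotlib 3.10.9.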

Additional observations from a re-analysis of the deposited data

How the results depend on the processing

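All 8 transporters stayed lower in the TSF library under each alternative that kept all CM cells (7 of 7 with a filter of 25% of cells), 0 were past the fold in the other direction, and intervals overlapped for all 8 with Wilson's method too. A pseudocount of 0.1 moved the median log2 ratio of the 8 from -0.17 to -0.48 and 0.01 moved it to -0.62. Slc7a5 rather than Slc3a2 had the largest difference with both, at -1.69 against -1.37 with 0.01. The count past 1.5-fold lower was then 3 and 4, where 17.3% and 28.3% of all genes were, and 0 were past 2-fold with the pseudocount of 1. With 0.1 the list medians were 0.31 for the other plasma membrane carriers, -0.23 for the mitochondrial carriers and -0.38 for the ATF4 response genes. Without the shallowest CM cell, an alternative chosen after seeing the data, 2 stayed past 1.5-fold if it held no UMI. If it held the most UMIs possible, 0 did, the median was -0.049 and Slc3a2 turned to 0.44, while Slc38a2 and Slc38a1 would be at 0.60 and 0.20. Of 56 values of single transporters under alternatives, 53 were below 0 and these 3 were above 0, so Slc3a2, Slc38a2 and Slc38a1 each changed sign. Beside that of Slc3a2, 21 values had moved by 0.1 or more on the log2 scale, those of Slc38a2 and Slc38a1 among them. Replicates could not be left out in turn, since each group had 1 library. No paired analysis was possible because each group had 1 library.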

Other observations

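Beyond amino acids, 275 other genes of the Slc families were in the table, and 120 passed the filter. Of these, 73 were lower and 47 higher in the TSF library, with a median log2 ratio of -0.02, so this background had no shift beyond that of all genes. The genes below were named after their values were seen. Slc25a24, a mitochondrial ATP-Mg and phosphate carrier, was the only one past 1.5-fold, at 0.587 CP10k with TSF and 1.5 with CM, and was seen in 71.2% and 86.2% of cells. Next lowest were Slc35e4 (0.323 and 0.920 CP10k) and the nucleotide sugar carrier Slc35d2 (0.0388 and 0.418 CP10k), of which the latter was seen in 18 TSF cells (12.9%) and 3 CM cells (10.3%). The gaps between the libraries equalled 2.58, 1.68 and 1.07 UMIs of the shallowest CM cell for Slc25a24, Slc35e4 and Slc35d2. What that cell held of them is not known.

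Highest was Slc25a1, the mitochondrial citrate carrier, at 0.534 CP10k with TSF and 0.161 with CM. It was seen in 93 TSF cells (66.9%, interval 58.4 to 74.6%) and 8 CM cells (27.6%, interval 12.7 to 47.2%), intervals that did not overlap. Slc39a14, a zinc and iron importer, was at 0.583 and 0.320 CP10k, and Slc25a4, the mitochondrial ADP and ATP exchanger, at 5.79 and 5.01 CP10k, the highest level of these 6 genes in both libraries.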
